A study of Mus musculus with 24 samples.

Results

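The genes described here are the protocadherins of the mouse hippocampus, defined as the rows of the deposited count table whose symbol starts with Pcdh and whose mean level over 24 libraries was at least 0.3 CPM (a row's count divided by the library's total count and multiplied by 1000000). The rule took 69 of the 51912 rows and left out 1 of the 70 rows with such a symbol. The members were 14 rows of the α cluster (Pcdha), 21 of the β cluster (Pcdhb), 22 of the γ cluster (Pcdhg) and 12 non-clustered genes. Pcdh12, at 0.340 CPM, lay just inside the limit, and Pcdhb1, at 0.0885 CPM, was the row left out.

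Protocadherins are cadherin-family adhesion molecules of the neuronal surface. The α, β and γ genes lie in tandem on mouse chromosome 18. Each α and γ gene has its own promoter and first exon, which encodes the extracellular part, and is spliced to constant exons common to its cluster, whereas the β genes have no constant exons. Neurons switch on different sets of these promoters, under the control of CTCF, cohesin and DNA methylation, and like-to-like binding of the resulting proteins lets a neuron tell its own branches from those of other cells. The C-type members of the α and γ clusters are known to be expressed more uniformly. The non-clustered members, most of them δ-protocadherins, act in cell sorting, axon growth and synapse formation.

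The libraries came from the dorsal and ventral hippocampus of 12 mice of the strain C57BL/6J, sired by males that had received nicotine or saline chronically. Each combination of sire treatment and sex held 3 animals, and both regions of every animal were sequenced, which gave 8 groups of 3 libraries: dorsal or ventral hippocampus of nicotine-sired males, nicotine-sired females, saline-sired males and saline-sired females. Treatment was of the sire, and the labels name neither the sire nor the litter of an animal, nor its age, so the p-values measure the spread between these animals. The number at the start of the sample titles was the same within each of the 4 combinations of sire treatment and sex and differed between them. Whatever it stands for cannot be told apart from sire treatment, from sex or from a treatment difference that depends on sex. The total count per library ranged from 32049770 to 47486547. The tissue was bulk, so fewer cells of a type and less RNA per cell cannot be told apart.

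The regional labels were checked against marker genes. Lct was lower in ventral libraries by 2.57 on the log2 scale, and Dcn and Nr2f2 were higher by 2.58 and 1.77. Of the dorsal-side list, Lct and Wfs1 were lower and Nnat higher in ventral libraries, and of the ventral-side list 5 of 6 genes were higher and Trpc6 was lower. Of 8 hippocampal neuron markers 6 passed as lower in ventral libraries, with a median log2 difference of -0.37 over the list. The 6 were Prox1 (-0.80), Zbtb20 (-0.61), Neurod2 (-0.51), Wfs1 (-0.46), Camk2a (-0.28) and Rbfox3 (-0.28). Grik4 (0.24) and Slc17a7 (0.05) had a positive sign and did not pass. The summed level of all 8 was 5319 to 6867 CPM in dorsal and 4651 to 5807 CPM in ventral libraries. It was lower on the ventral side in 12 of 12 animals, with no marker at 0. Camk2a was the largest part of this sum, with medians of 3650 CPM in dorsal and 3037 CPM in ventral libraries. Markers of other cell types differed between the regions too. The summed level of 5 oligodendrocyte markers was 4671 to 8669 CPM in dorsal and 3330 to 4546 CPM in ventral libraries, and that of 10 choroid plexus markers was 201 to 7778 CPM in dorsal and 163 to 2824 CPM in ventral libraries, with no marker at 0 in either list. All 5 and all 10 of these markers passed the test as lower in ventral libraries. All 3 markers of oligodendrocyte precursors (88.8 to 123 CPM summed in dorsal and 101 to 133 CPM in ventral libraries) and 3 of 6 of inhibitory neurons (516 to 883 and 743 to 945 CPM) passed it as higher. A fit that carries choroid plexus level as a covariate is given beside each result whose call it changed, and the part of the other lists in the results below was not tested.

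A small set of libraries stood apart from the rest in Zbtb20, a transcription factor of hippocampal pyramidal and granule neurons. It was at 66.7 to 89.8 CPM in 4 libraries (the dorsal and ventral libraries of nicotine-sired female A and the ventral libraries of nicotine-sired male B and saline-sired female A) and at 106 to 207 CPM in the other 20. The same 4 libraries held the lowest levels of Pcdh20, 45.4 to 59.8 CPM against 78.5 to 132 CPM in the other 20. Results for the regions are therefore given with and without these libraries where the call differs.

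Levels came first, because they decide what each row measures. The 12 α rows other than the C-type ones had nearly the same mean level, from 98.5 CPM for Pcdha8 to 102 CPM for Pcdha12, and the 19 γA and γB rows lay between 479 CPM for Pcdhgb8 and 492 CPM for Pcdhga11. In the annotation the α genes share 2860 bases of exon and the γ genes share 2116. Every α or γ row therefore holds a large common count to which a small count of its own is added. Pcdha8 was the lowest α row in 23 of the 24 libraries and Pcdhgb8, annotated as a polymorphic pseudogene, was the lowest γ row in all 24. The lowest row of a cluster was taken as the shared count of the library, and the difference from it as the own count of each other row, a choice made after the rows had been seen. By construction the own count of the lowest row is 0, and every other own count is too low by whatever that row holds of its own.

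**Figure D1:**
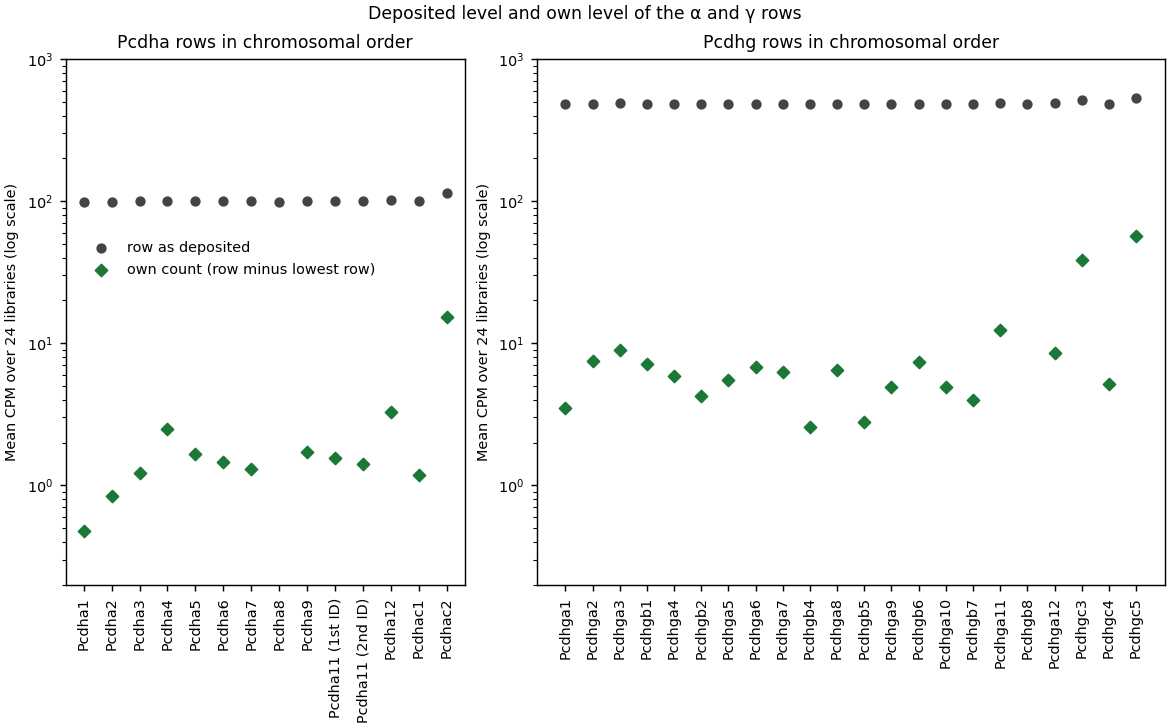
Mean CPM over 24 libraries, on a log scale, of each α row (left) and γ row (right) in chromosomal order, as deposited (circles) and as own count (diamonds). The deposited rows lie between 98.5 and 114 CPM in the α cluster and between 479 and 536 CPM in the γ cluster, while the own counts spread from 0.473 CPM for Pcdha1 to 57.0 CPM for Pcdhgc5. Pcdha8 and Pcdhgb8 have no diamond because they are the lowest rows.

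On own counts 3 of the 5 C-type members stood above every alternate isoform of their cluster, Pcdhgc5 at 57.0 CPM, Pcdhgc3 at 38.5 CPM and Pcdhac2 at 15.3 CPM. Pcdhgc4, at 5.16 CPM, and Pcdhac1, at 1.18 CPM, lay within the range of the alternate isoforms. The C-type rows held 48.5% of the own counts of the α cluster and 47.8% of those of the γ cluster. Among the alternate isoforms Pcdhga11, at 12.5 CPM, was the highest γ row, and Pcdha12, at 3.29 CPM, and Pcdha4, at 2.51 CPM, the highest α rows. Only 0.477% to 3.23% of the count of an alternate α row above the lowest row was its own, and for γA and γB rows the share was 0.537% to 2.53%.

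Per length the order of the clusters changes with the exons used. Per kilobase of all annotated exon the median level was 18.7 CPM for the alternate α rows, 103 CPM for γA, 99.0 CPM for γB and 1.03 CPM for the β rows. Per kilobase of exon that no other member shares, and on own counts, it was 0.553 CPM for the alternate α rows, 2.38 CPM for γA, 1.54 CPM for γB and again 1.03 CPM for the β rows, which share no such exon. On this scale Pcdhgc3 (11.4 CPM per kilobase) and Pcdhgc5 (10.3 CPM per kilobase) stood above every β row, the highest of which was Pcdhb9 at 4.46 CPM per kilobase. The highest α row, at 5.04 CPM per kilobase, and the highest γA row, at 4.72 CPM per kilobase, also lay above Pcdhb9. The shared exons carried 34.5 CPM per kilobase in the α cluster and 226 CPM per kilobase in the γ cluster, 2.83 and 3.55 times the sum of the own levels per kilobase. Why the shared part exceeds that sum was not tested.

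Among the non-clustered genes Pcdh1, a δ-1 protocadherin, was the most abundant, with 34.6 CPM per kilobase of exon. Pcdh20 followed with 17.0, Pcdh8 with 13.4 and Pcdh9 with 11.8 CPM per kilobase. Pcdh19, Pcdh7, Pcdh10 and Pcdh17 lay between 4.52 and 6.25 CPM per kilobase. Pcdh18, Pcdh11x, Pcdh15 and Pcdh12 were the lowest, at 0.0562 to 0.596 CPM per kilobase. Pcdhb21 and Pcdhb22 overlap on 1 strand, and several members overlap a gene on the other strand. The overlap was 3338 bases of exon for the second of the 2 rows named Pcdha11, 2613 for Pcdhga10, 2235 for Pcdh7, 1927 for Pcdhb12, 1559 for Pcdhgc3, 1381 for Pcdhga11 and 771 for Pcdhgb7, and shorter for the other members that have one. The strand setting of the counting and its treatment of reads that match several near-identical members were not given in the sources used here, so counts of these rows, and of β rows in general, are uncertain to that extent.

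Region was the strongest contrast in the data. Comparing ventral with dorsal libraries over all groups, 5803 of 19849 genes tested, or 29.2%, passed an adjusted p of 0.05. All 69 members passed the filter on low counts, and 11 of them passed the test, which were 5 of 12 non-clustered genes, all higher in ventral libraries, and 6 of 21 β genes, all lower. None of the 14 α and 22 γ rows passed as deposited. The median log2 difference was 0.22 over the non-clustered genes, -0.19 over the β genes, 0.04 over the α rows and -0.04 over the γ rows, beside -0.01 over all genes tested. The β and non-clustered shares bracket the share of all genes that passed. With the animal as a block, so that each ventral library was set against the dorsal library of the same animal, 18 members passed, 7 higher and 11 lower. DESeq2 called 14 members, the same 11 and also Pcdh7 (adjusted p = 0.0439), Pcdh20 (adjusted p = 0.0281) and Pcdh1 (adjusted p = 0.0449). The share of all genes that passed with the block or with DESeq2 is not given, so these member counts lack a background.

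Of the δ-2 protocadherins 3 of 5 passed as higher in ventral libraries. This group acts through actin regulators at the membrane. Pcdh19, an X-linked gene mutated in a form of epilepsy that affects mainly females, ranged from 34.0 to 72.5 CPM with a median of 56.8 in dorsal libraries and from 61.7 to 95.1 CPM with a median of 76.3 in ventral libraries. It was higher in the ventral library of all 12 animals, although the 2 ranges overlap. The log2 difference was 0.42 ± 0.09 (SE over 24 libraries without an animal term, adjusted p = 0.00113 with edgeR). Pcdh10, an axon guidance and synapse elimination protocadherin, ran from 59.5 to 106 CPM (median 73.2) in dorsal and from 71.8 to 113 CPM (median 89.6) in ventral libraries. The dorsal value of 106 CPM belonged to nicotine-sired female A, and the next highest dorsal library was at 87.2 CPM. Pcdh10 was higher on the ventral side in 10 of 12 animals, by 0.30 ± 0.08 on the log2 scale (SE, adjusted p = 0.00888). With choroid plexus level added as a covariate it did not pass, at 0.25 with an adjusted p of 0.0511.

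Pcdh18 was the least abundant δ-2 member. It lay at 1.66 to 3.53 CPM (median 2.78) in dorsal and 2.81 to 4.76 CPM (median 3.70) in ventral libraries. The ventral library was the higher one in 11 of 12 animals, and the log2 difference was 0.42 ± 0.10 (SE, adjusted p = 0.00277). The remaining δ-2 members did not pass. Pcdh17, a synaptic protocadherin of corticostriatal and amygdala circuits, differed by 0.14 ± 0.06 on the log2 scale (SE, adjusted p = 0.112), but passed with the animal as a block (adjusted p = 0.0284) and without the 4 libraries of low Zbtb20 (adjusted p = 0.0159). Pcdh8, an activity-induced protocadherin also called arcadlin, differed by -0.19 ± 0.11 (SE, adjusted p = 0.238) and passed only without those 4 libraries, at -0.20 with an adjusted p of 0.0246, or without nicotine-sired female A.

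Among the δ-1 genes Pcdh11x differed most. It is an X-linked gene, and its dorsal libraries held 2.21 to 6.78 CPM (median 4.46) against 3.91 to 8.82 CPM (median 6.66) in ventral libraries. It was higher on the ventral side in 10 of 12 animals, and the log2 difference of 0.67 ± 0.13 (SE, adjusted p = 0.000685) corresponds to 1.59-fold. Pcdh7, a δ-1 gene known to bind protein phosphatase 1, had a log2 difference of 0.38 ± 0.14 (SE, adjusted p = 0.0502) and did not pass. Its median was 43.4 CPM in dorsal and 62.8 CPM in ventral libraries, but the highest value of all, 106 CPM, was in the dorsal library of nicotine-sired female A. It passed with the animal as a block (adjusted p = 0.0165) and without the 4 libraries of low Zbtb20, where the difference was 0.42 (adjusted p = 0.00233), and also without nicotine-sired female A, saline-sired male C or saline-sired female C.

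The abundant Pcdh1 and the evenly expressed Pcdh9 complete the δ-1 group. Pcdh1 was at 253 to 371 CPM (median 326) in dorsal and 238 to 334 CPM (median 289) in ventral libraries, a log2 difference of -0.16 ± 0.06 (SE, adjusted p = 0.0541) that passed with the animal as a block (adjusted p = 0.00897) and without nicotine-sired male B, nicotine-sired female A or saline-sired female C. Pcdh9 differed by 0.04 ± 0.08 (SE, adjusted p = 0.750), with an interval of 1.96 SE from -0.11 to 0.19.

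Outside the δ groups Pcdh15 and Pcdh20 went opposite ways. Pcdh15, known as a tip-link protein of inner-ear hair cells and as a gene of oligodendrocyte precursors, was at 2.63 to 6.37 CPM (median 4.32) in dorsal and 4.05 to 8.60 CPM (median 6.99) in ventral libraries. It was higher on the ventral side in 11 of 12 animals, by 0.60 ± 0.13 on the log2 scale (SE, adjusted p = 0.00168). The 3 precursor markers Pdgfra, Cspg4 and Gpr17 were higher there by 0.28, 0.25 and 0.16, and their part in the difference of Pcdh15 was not tested. Pcdh20 was at 45.4 to 132 CPM (median 110) in dorsal and 48.7 to 98.1 CPM (median 88.8) in ventral libraries, and was higher on the ventral side in 1 of 12 animals, nicotine-sired female A. Its log2 difference of -0.38 ± 0.15 (SE, adjusted p = 0.0571) did not pass, but it did with the animal as a block (adjusted p = 0.0103) and without the 4 libraries of low Zbtb20, at -0.31 (adjusted p = 0.00550), and also without nicotine-sired female A or saline-sired female C. Pcdh12, a vascular endothelial protocadherin, had a log2 difference of 0.12 ± 0.26 (SE, adjusted p = 0.780).

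**Figure D2:**
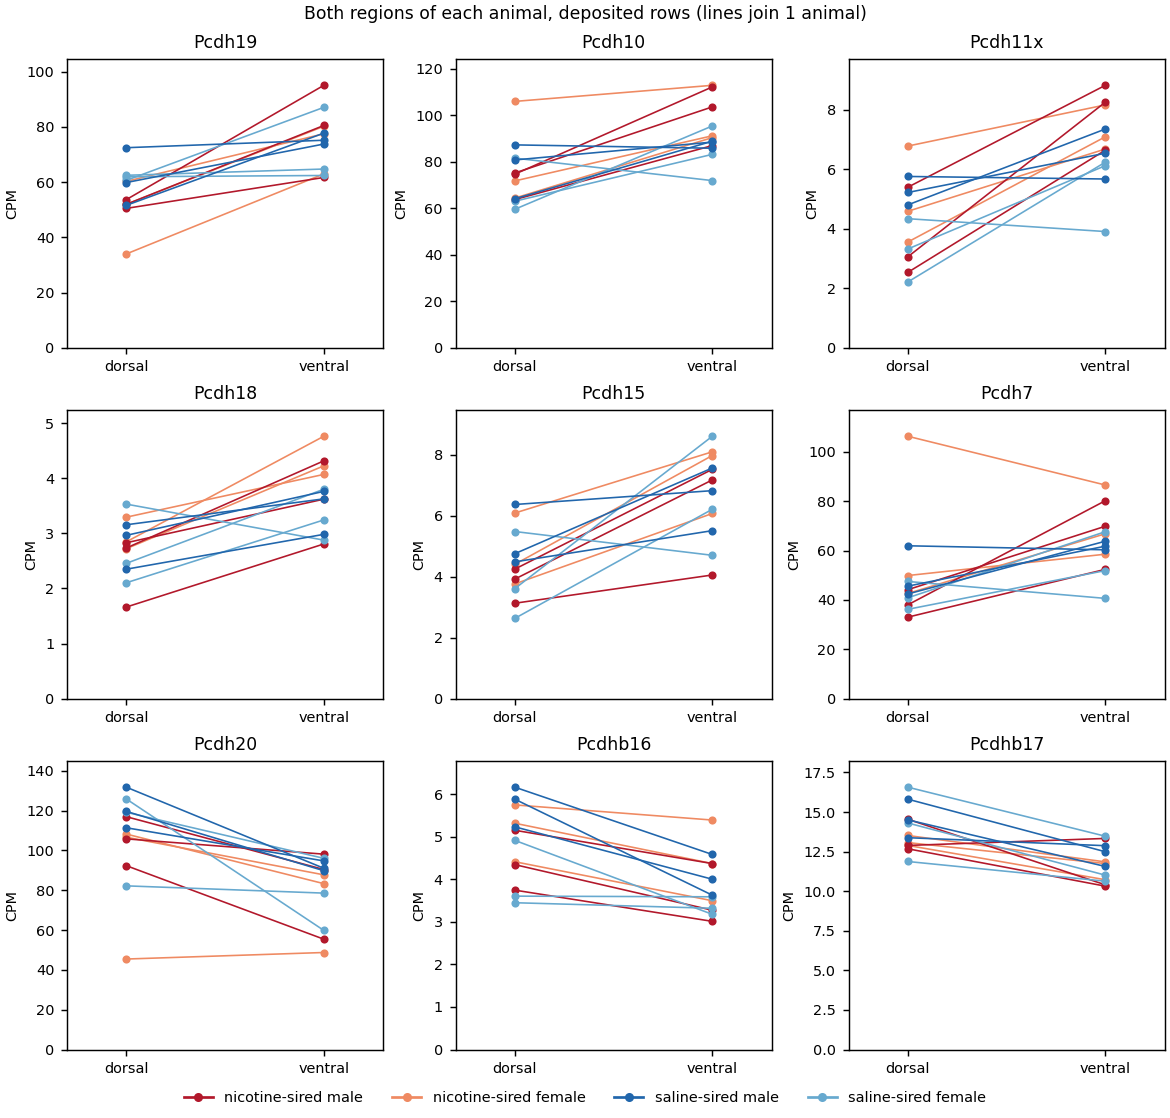
CPM in the dorsal and ventral library of each of 12 animals for 9 members, with a line joining the libraries of 1 animal and colours for sire treatment and sex. The lines of Pcdh19 rise in all 12 animals and those of Pcdhb16 fall in all 12, while the dorsal library of nicotine-sired female A stands high for Pcdh7 and Pcdh10 and low for Pcdh19 and Pcdh20.

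The promoters of the 3 δ-2 genes that were higher in ventral libraries are printed beside that of Pcdh20, whose difference had the opposite sign, so that their sequences can be compared. Each is the 250 bases before the RefSeq transcription start on GRCm38.p6, read 5′ to 3′ on the strand of the gene, with CCAAT or its reverse complement ATTGG in capitals. They span chr3:45378148-45378397 on the plus strand for Pcdh10, chr3:49757317-49757566 on the minus strand for Pcdh18, chrX:133688994-133689243 on the minus strand for Pcdh19 and chr14:88471397-88471646 on the minus strand for Pcdh20.
Pcdh10: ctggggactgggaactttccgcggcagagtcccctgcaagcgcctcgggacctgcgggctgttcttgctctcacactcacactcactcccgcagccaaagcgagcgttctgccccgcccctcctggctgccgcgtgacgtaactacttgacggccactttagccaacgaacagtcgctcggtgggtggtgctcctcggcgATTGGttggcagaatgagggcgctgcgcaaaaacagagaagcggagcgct
Pcdh18: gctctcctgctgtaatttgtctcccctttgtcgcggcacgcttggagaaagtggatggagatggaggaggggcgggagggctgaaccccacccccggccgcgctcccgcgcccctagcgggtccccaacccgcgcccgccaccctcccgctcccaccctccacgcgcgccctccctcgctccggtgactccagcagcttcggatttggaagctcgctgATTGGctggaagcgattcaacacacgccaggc
Pcdh19: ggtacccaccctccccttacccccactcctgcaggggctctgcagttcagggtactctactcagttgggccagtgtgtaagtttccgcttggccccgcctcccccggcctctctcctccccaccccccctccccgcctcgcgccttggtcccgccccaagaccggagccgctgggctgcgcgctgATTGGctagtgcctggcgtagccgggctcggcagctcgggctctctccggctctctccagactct
Pcdh20: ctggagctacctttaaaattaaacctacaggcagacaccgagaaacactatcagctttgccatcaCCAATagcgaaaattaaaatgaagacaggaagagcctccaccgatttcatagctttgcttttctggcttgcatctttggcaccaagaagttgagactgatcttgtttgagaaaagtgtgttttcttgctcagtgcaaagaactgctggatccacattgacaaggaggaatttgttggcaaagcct

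The GC content of these windows was 63.2% for Pcdh10, 68% for Pcdh18, 69.2% for Pcdh19 and 42.4% for Pcdh20. Each of the 4 holds 1 match to CCAAT on either strand. RefSeq windows were found for 9 non-clustered members (Pcdh7, Pcdh8, Pcdh9, Pcdh10, Pcdh15, Pcdh17, Pcdh18, Pcdh19 and Pcdh20), and 8 of them hold CCAAT, as do 33.8% of all 32851 windows of this length. The GC box GGGCGG was found in 4 of the 9 and 32.7% of all windows, TATAAA in 2 of the 9 and 12.4% of all windows, and CGCT in 9 of the 9 and 55.7% of all windows. Both strands were searched, and bases shared by matches to different motifs were counted for each. A match describes the letters of the window and not a bound site.

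The β genes were lower in ventral libraries where they differed. Their summed level was 111 to 141 CPM (median 126) in dorsal and 99.6 to 133 CPM (median 121) in ventral libraries, and the ventral sum was the higher one in 1 of 12 animals. Of 21 β genes 17 had a negative and 4 a positive log2 difference, and 6 passed, namely Pcdhb3, Pcdhb6, Pcdhb7, Pcdhb15, Pcdhb16 and Pcdhb17, a share no larger than the 29.2% of all genes. Of the 8 hippocampal neuron markers 6 passed as lower too, while Grik4 and Slc17a7 did not. The sum of the 8 was lower in 12 of 12 animals. The part of these markers in the β differences was not tested. The β proteins are membrane adhesion molecules without the constant tail of α and γ proteins, and they join mixed complexes with them at the cell surface.

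Pcdhb16 had the most regular pattern. It was at 3.45 to 6.16 CPM (median 5.03) in dorsal and 3.01 to 5.39 CPM (median 3.61) in ventral libraries and lower on the ventral side in all 12 animals, by 0.33 on the log2 scale (SE 0.09, adjusted p = 0.00499). Its neighbour Pcdhb17, more abundant at 11.9 to 16.6 CPM (median 13.4) in dorsal and 10.3 to 13.5 CPM (median 11.7) in ventral libraries, had a log2 difference of -0.25 ± 0.06 (SE, adjusted p = 0.00265). For both genes the ranges of the regions overlap, and both passed whichever animal was left out.

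The other 4 β calls were less firm. Pcdhb15 was at 1.76 to 2.73 CPM (median 2.45) in dorsal and 1.69 to 2.48 CPM (median 1.98) in ventral libraries, with a log2 difference of -0.26 ± 0.08 (SE, adjusted p = 0.0171), and did not pass without nicotine-sired female C, without saline-sired male B or without the 4 libraries of low Zbtb20 (adjusted p = 0.0658). Pcdhb3, at 6.58 to 9.49 CPM (median 8.50) and 6.19 to 9.05 CPM (median 7.18), differed by -0.20 ± 0.07 (SE, adjusted p = 0.0255) and did not pass without nicotine-sired male C, saline-sired male A, saline-sired male B or saline-sired female A. Pcdhb6, at 2.22 to 4.69 CPM (median 2.90) and 1.73 to 3.35 CPM (median 2.52), differed by -0.33 ± 0.11 (SE, adjusted p = 0.0279) and did not pass in 5 of 12 such fits, those without nicotine-sired male B, nicotine-sired female B or C, saline-sired male A or saline-sired female A, nor with the choroid plexus covariate (adjusted p = 0.198). Pcdhb7, at 6.67 to 11.9 CPM (median 9.08) and 6.28 to 10.5 CPM (median 7.46), differed by -0.24 ± 0.09 (SE, adjusted p = 0.0492) and passed in 3 of 12 such fits, those without nicotine-sired male A, nicotine-sired male B or saline-sired female C, and did not pass without the 4 libraries of low Zbtb20 (adjusted p = 0.144). In each of these genes the sign of the difference was the same in all 12 fits.

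Beyond these, Pcdhb5, Pcdhb13 and Pcdhb18 passed with the animal as a block, with adjusted p of 0.0323, 0.0175 and 0.0486. With the choroid plexus covariate Pcdhb5 passed at -0.26 (adjusted p = 0.00180) and Pcdhb13 at -0.36 (adjusted p = 0.00294). Pcdhb5 also passed without the 4 libraries of low Zbtb20, at -0.21 (adjusted p = 0.0223). Leaving out 1 animal brought a call to Pcdhb5 and Pcdhb18 (without nicotine-sired female A), to Pcdhb13 (without saline-sired male A or saline-sired female C) and to Pcdhb4 (without nicotine-sired male A). The highest β gene, Pcdhb9, was at 10.9 to 16.3 CPM (median 13.8) in dorsal and 10.2 to 15.5 CPM (median 13.7) in ventral libraries, and its log2 difference of -0.08 ± 0.05 (SE, adjusted p = 0.239) did not pass. Pcdhb10, Pcdhb12, Pcdhb21 and Pcdhb22 were the 4 with a positive sign, between 0.03 and 0.08, and none of them passed.

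The α and γ rows as deposited carried 1 regional value per cluster. The shared α count was 85.4 to 120 CPM (median 96.4) in dorsal and 83.7 to 117 CPM (median 101) in ventral libraries, and the shared γ count was 435 to 532 CPM (median 489) and 434 to 517 CPM (median 475). Neither passed the test, with log2 differences of 0.03 ± 0.05 (SE, adjusted p = 0.669) for Pcdha_shared and -0.05 ± 0.04 (SE, adjusted p = 0.364) for Pcdhg_shared, the names of these rows in the table of tests. Because every α row contains the same shared count, 14 rows of 1 sign in that cluster, or 22 in the γ cluster, are not 14 or 22 observations.

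Own counts gave each isoform a value. In a fit with own counts in place of the α and γ rows, 5835 of 19849 genes, or 29.4%, passed. Among them were 6 of the 34 α and γ members that could be tested, a smaller share than that of all genes. Pcdha3, Pcdhga7, Pcdhgb4 and Pcdhgc4 passed as higher and Pcdhgb7 and Pcdhga12 as lower in ventral libraries. Pcdhgc4, a C-type isoform that is required for the survival of inhibitory neurons in mice, stood out. Its own level was 2.26 to 5.53 CPM (median 3.83) in dorsal and 5.15 to 9.29 CPM (median 6.30) in ventral libraries, and it was higher on the ventral side in all 12 animals. The log2 difference was 0.68 ± 0.11 (SE, adjusted p = 5.45e-05), or 1.61-fold, and was between 0.64 and 0.77 with each animal left out in turn, passing in all 12 of these fits. The ranges of the regions overlap only between 5.15 and 5.53 CPM. The inhibitory neuron markers Sst, Slc32a1 and Vip were higher in ventral libraries by 0.39, 0.20 and 0.56 on the log2 scale, and Gad1, Gad2 and Pvalb did not pass. Their part in the level of Pcdhgc4 was not tested.

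The other C-type isoforms had smaller estimates than Pcdhgc4 in this contrast. Pcdhgc3 differed by 0.14 ± 0.07 (SE, adjusted p = 0.144), with own levels of 29.9 to 47.9 CPM (median 36.3) in dorsal and 34.5 to 53.7 CPM (median 38.9) in ventral libraries, and passed with the animal as a block (adjusted p = 0.0167). Pcdhgc5 differed by -0.08 ± 0.06 (SE, adjusted p = 0.377) with an interval from -0.20 to 0.04. Pcdhac2 differed by 0.07 ± 0.09 (SE, adjusted p = 0.638) with an interval from -0.11 to 0.24, and Pcdhac1 by 0.16 ± 0.15 (SE, adjusted p = 0.455). The intervals of these 4 isoforms end below that of Pcdhgc4, which begins at 0.47, but the differences between isoforms were not tested.

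**Figure D3:**
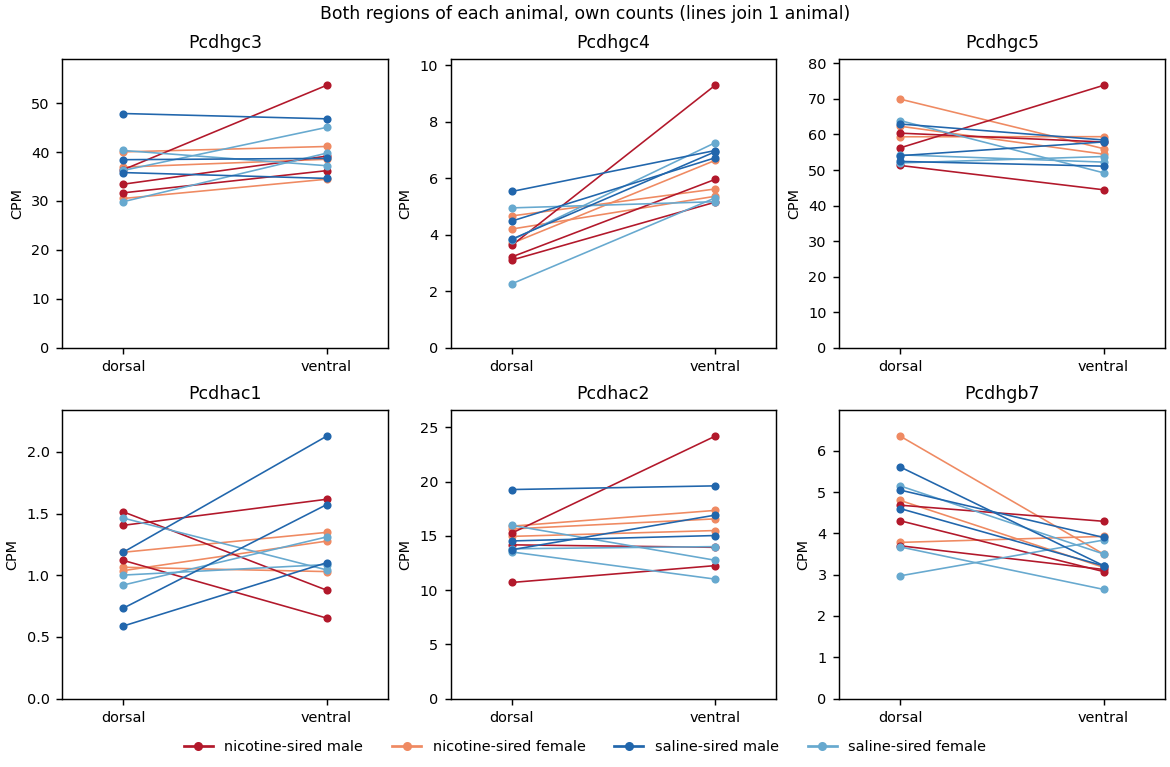
Own-count CPM in the dorsal and ventral library of each of 12 animals for the 5 C-type members and Pcdhgb7, with a line joining the libraries of 1 animal. Pcdhgc4 rises in all 12 animals, from a dorsal median of 3.83 CPM to a ventral median of 6.30 CPM, and Pcdhgb7 falls in 10 of 12.

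Among the alternate γ isoforms Pcdhgb7 gave the firmest call. Its own level was 2.97 to 6.35 CPM (median 4.64) in dorsal and 2.64 to 4.29 CPM (median 3.36) in ventral libraries, a log2 difference of -0.40 ± 0.10 (SE, adjusted p = 0.00353) that passed in all 12 fits with an animal left out. Pcdhga7, with 4.32 to 7.48 CPM (median 5.43) and 4.49 to 9.47 CPM (median 6.84), differed by 0.30 ± 0.09 (SE, adjusted p = 0.0211) and did not pass without saline-sired female B. Pcdhgb4, with 1.60 to 2.88 CPM (median 2.28) and 1.93 to 4.09 CPM (median 2.75), differed by 0.33 ± 0.11 (SE, adjusted p = 0.0246) and did not pass without nicotine-sired male A, saline-sired male A or saline-sired female A. Pcdhga12, with 7.26 to 11.3 CPM (median 9.31) and 6.40 to 10.9 CPM (median 7.62), differed by -0.23 ± 0.08 (SE, adjusted p = 0.0274) and passed in 7 of 12 such fits, failing without nicotine-sired male C, nicotine-sired female B or C, saline-sired male C or saline-sired female A. With the choroid plexus covariate Pcdhgc4 and Pcdhgb7 still passed, while Pcdhga7, Pcdhgb4 and Pcdhga12 had adjusted p of 0.0593, 0.0819 and 0.0869. Without the 4 libraries of low Zbtb20 the adjusted p was 0.0600 for Pcdhga7 and 0.0517 for Pcdhga12, and Pcdhga10, which had not passed with all libraries (adjusted p = 0.111), passed at -0.32 (adjusted p = 0.0148).

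In the α cluster 12 of 13 own counts had a positive log2 difference, with a median of 0.24, and 1 passed. Pcdha3, at 0.539 to 1.34 CPM (median 1.04) in dorsal and 0.822 to 2.35 CPM (median 1.37) in ventral libraries, differed by 0.48 ± 0.15 (SE, adjusted p = 0.0225). It passed in 7 of 12 fits with an animal left out, failing without nicotine-sired male A, nicotine-sired female B, saline-sired male A, saline-sired female A or saline-sired female B, and passed neither with the choroid plexus covariate (adjusted p = 0.110) nor without the 4 libraries of low Zbtb20 (adjusted p = 0.0643). All own α counts are taken from the same lowest row in a library, so their signs are not independent. Along the γ cluster the own counts of Pcdhga1, Pcdhga2, Pcdhga3 and Pcdhgb1 had negative, those from Pcdhga4 to Pcdhga9 positive, and those from Pcdhgb6 to Pcdhga12 again negative log2 differences, apart from Pcdhgb8, which has none. This run of signs was seen in the data and was not tested. With the animal as a block 11 own counts passed, 7 higher and 4 lower, and the share of all genes that passed in that fit is not given.

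**Figure D4:**
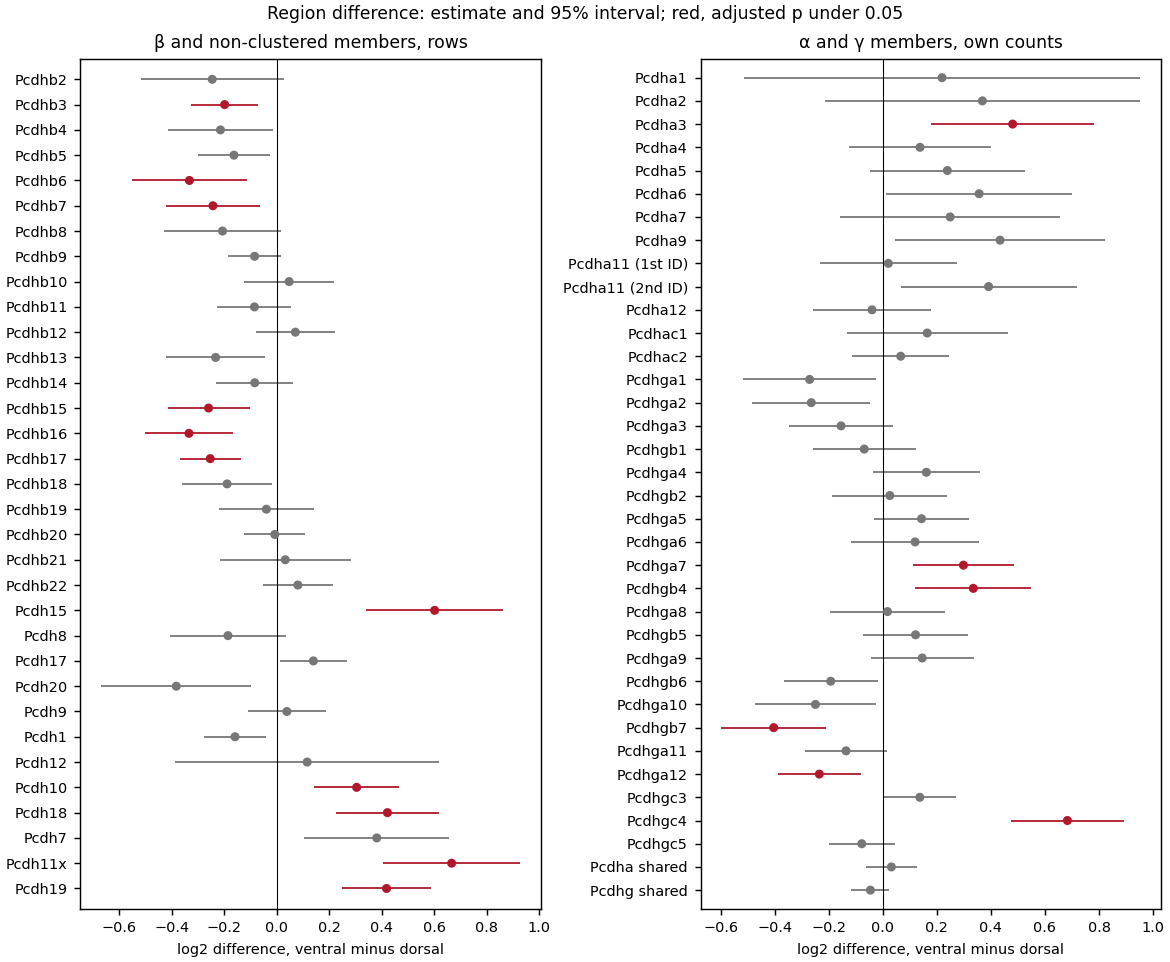
Log2 difference of ventral minus dorsal for β and non-clustered rows (left) and for α and γ own counts with the shared count of each cluster (right). Points are edgeR estimates from 24 libraries, lines are 1.96 SE to either side, and red marks an adjusted p under 0.05. Most β points lie left of 0, Pcdh11x (0.67) and Pcdh15 (0.60) lie farthest right among the rows, and Pcdhgc4 (0.68) farthest right among the own counts.

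The study asked what sire nicotine does to gene expression in the offspring hippocampus. No protocadherin passed the test for sire treatment in any of the 8 comparisons within a region, and none passed for a treatment difference that depends on region. The comparisons of nicotine-sired with saline-sired offspring in dorsal hippocampus called 0.0784% of all 19130 genes tested for both sexes, 1.78% for males, 0.0314% for females and 2.24% for the sex difference of the treatment difference. In ventral hippocampus they called 1.75%, 3.21%, 0.0312% and 1.07% of 19224 genes. For the difference between regions in the treatment difference, 0 of 19849 genes (0%) passed with edgeR and with DESeq2, and 945 had an unadjusted p under 0.05 with edgeR. At those shares 0 calls among 69 members is near the background. The share of all genes by unadjusted p is not given for the comparisons within a region, so the counts that follow lack a background. By unadjusted p under 0.05 the members numbered 3, 26, 2 and 26 in dorsal hippocampus, in the same order. In ventral hippocampus they numbered 18, 2, 22 and 6, and for the difference between regions 2. Most of these were α or γ rows that repeat 1 shared count: 22 γ rows in dorsal males, 18 in the dorsal sex difference, and 14 α rows in ventral hippocampus in both sexes and in females.

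Pcdh17 in dorsal males came nearest to a call. Its level was 50.5, 46.1 and 50.1 CPM in nicotine-sired and 67.2, 67.1 and 69.5 CPM in saline-sired males, 2 sets that do not overlap. The share of all genes whose sets of 3 libraries do not overlap is not given, here or for the genes below. The log2 difference was -0.41 ± 0.11 (SE, n = 3 and 3, adjusted p = 0.0763 with edgeR), which did not pass, whereas DESeq2 gave an adjusted p of 0.0184. In females the dorsal levels were 42.6, 60.2 and 59.5 CPM against 57.6, 46.4 and 53.6 CPM and overlap, with a difference of 0.03 ± 0.11 (SE). The test of the sex difference gave 0.44 ± 0.15 (SE, adjusted p = 0.133 with edgeR). Without nicotine-sired female A, Pcdh17 passed in dorsal males (adjusted p = 0.0135) and for the sex difference (0.56, adjusted p = 0.0205), although that animal is no male and enters only the shared estimate of spread and scaling in the first case.

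Pcdh12, near the low limit of the rule, was at 0.493, 0.413 and 0.422 CPM in nicotine-sired and 0.221, 0.0253 and 0.126 CPM in saline-sired dorsal males. The sets do not overlap, but the adjusted p was 0.118 with edgeR and the counts behind these values are small. In ventral males the levels were 0.177, 0.442 and 0.220 CPM against 0.344, 0.139 and 0.436 CPM and overlap.

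The γ rows had log2 differences of 0.17 to 0.20 between nicotine-sired and saline-sired dorsal males, none of which passed, and the smallest adjusted p was 0.172 with edgeR. Their shared count was 472, 491 and 532 CPM in nicotine-sired and 474, 448 and 435 CPM in saline-sired dorsal males, sets that overlap at their edge. In dorsal females it was 498, 484 and 495 CPM against 497, 504 and 488 CPM. On own counts no γ member had an adjusted p under 0.372 in dorsal males.

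Pcdhb8 and Pcdhb9 had opposite signs in the sexes. Pcdhb8 was at 2.14, 2.95 and 1.89 CPM in nicotine-sired and 3.82, 3.39 and 3.11 CPM in saline-sired dorsal males, and at 4.48, 4.20 and 3.45 CPM against 3.32, 1.87 and 2.89 CPM in dorsal females. The sets do not overlap in either sex, and the sex difference of the treatment difference was 1.09 ± 0.31 on the log2 scale (SE, adjusted p = 0.0851 with edgeR and 0.0243 with DESeq2). In ventral hippocampus the same difference was 0.71 ± 0.32 (SE, adjusted p = 0.323 with edgeR) for Pcdhb8. Pcdhb9 gave 0.42 ± 0.15 (SE, adjusted p = 0.140) in dorsal and 0.45 ± 0.14 (SE, adjusted p = 0.160) in ventral hippocampus, and passed in the latter without nicotine-sired male A (0.57, adjusted p = 0.0339). Its ventral levels were 14.2, 11.03 and 10.2 CPM in nicotine-sired and 14.1, 14.6 and 12.9 CPM in saline-sired males, and 14.2, 14.9 and 15.5 CPM against 12.6, 13.4 and 11.7 CPM in females. The regions come from the same animals, so their like values are not 2 independent observations.

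In ventral hippocampus of both sexes Pcdh11x and Pcdh10 had the smallest p-values. Pcdh11x was at 8.26, 8.82 and 6.64 CPM in nicotine-sired and 6.54, 7.35 and 5.67 CPM in saline-sired males. In females it was at 8.16, 7.09 and 6.68 CPM against 6.12, 6.24 and 3.91 CPM. The 3 values of nicotine-sired females lie above those of saline-sired females, those of males overlap, and the log2 difference over both sexes was 0.37 ± 0.12 (SE, adjusted p = 0.142 with edgeR). Pcdh10 was at 112, 104 and 86.9 CPM against 88.4, 88.8 and 85.8 CPM in males and at 113, 90.3 and 91.1 CPM against 95.3, 83.1 and 71.8 CPM in females, sets that overlap in both sexes. Its difference was 0.23 ± 0.08 (SE, adjusted p = 0.146 with edgeR), and with the choroid plexus covariate it passed, at 0.37 with an adjusted p of 0.0268. Without saline-sired female A, Pcdh8 passed as lower in this comparison.

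The α rows had positive log2 differences in ventral females, none of which passed. The shared α count was 117, 108 and 102 CPM in nicotine-sired and 98.2, 93.9 and 83.7 CPM in saline-sired females, which do not overlap, and 107, 99.5 and 94.3 CPM against 103, 102 and 94.0 CPM in males, which do. The row of Pcdhac2, the α row with the smallest p there, differed by 0.27 ± 0.08 in females (SE, adjusted p = 0.160 with edgeR) and by 0.03 ± 0.08 in males (SE), and the sex difference was 0.24 ± 0.11 (SE, adjusted p = 0.324 with edgeR). None of these passed. Ventral nicotine-sired female A, with the highest α count of that group, is among the libraries of low Zbtb20.

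The members of smallest p in the remaining comparisons did not pass either. In dorsal hippocampus of both sexes they were Pcdh12 (1.08 ± 0.37, SE, adjusted p = 0.345) and Pcdh17 (-0.19 ± 0.08, SE, adjusted p = 0.399), and in dorsal females Pcdh9 (0.32 ± 0.11, SE, adjusted p = 0.280) and Pcdhb8 (0.58 ± 0.22, SE, adjusted p = 0.305). In ventral males they were Pcdhb13 (0.38 ± 0.13, SE, adjusted p = 0.152) and Pcdh10 (0.23 ± 0.11, SE, adjusted p = 0.315). For the difference between regions Pcdh17 gave 0.36 ± 0.13 (SE, adjusted p = 0.881) and Pcdhb11 0.35 ± 0.14 (SE, adjusted p = 0.881), all with edgeR.

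**Figure D5:**
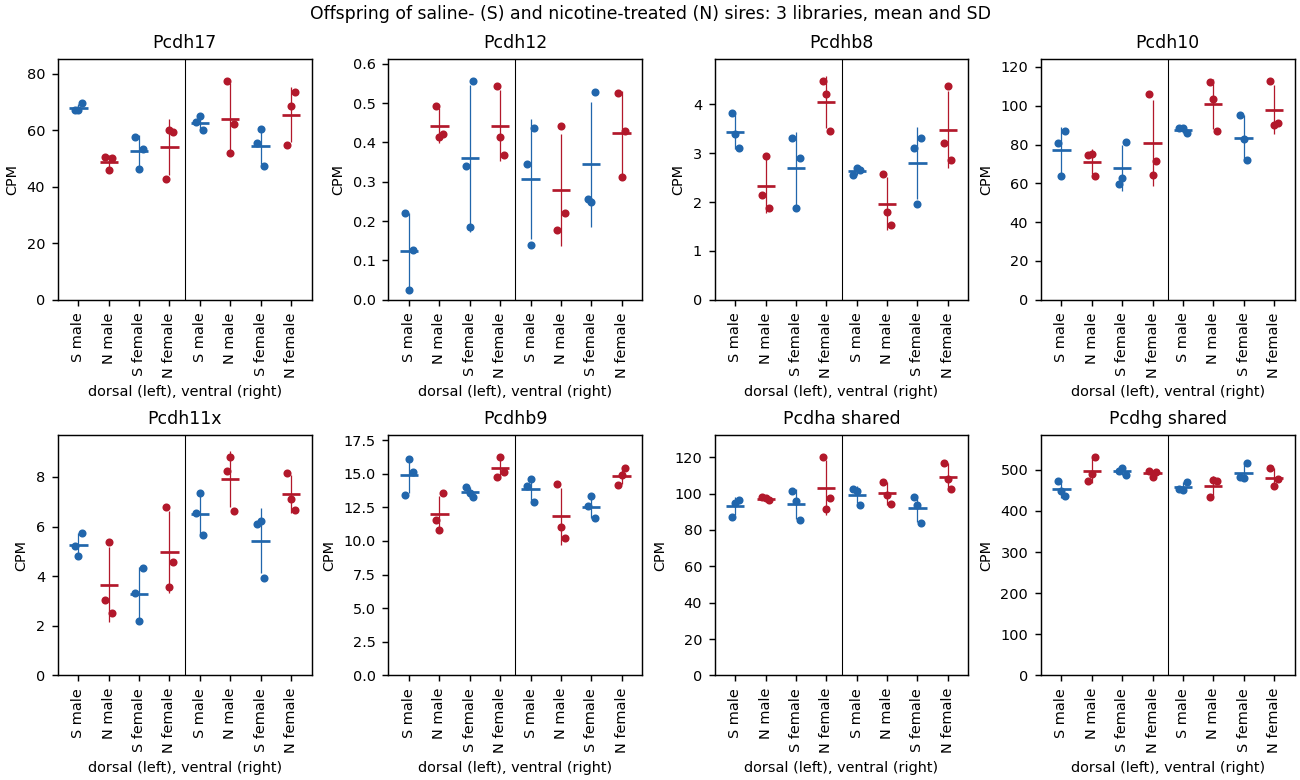
CPM of 6 rows and of the shared α and γ counts in offspring of saline-treated (S, blue) and nicotine-treated (N, red) sires, by sex, in dorsal (left of the line) and ventral (right) hippocampus. Points are libraries, bars are the mean and lines the SD of 3. Pcdh17 of dorsal males (46.1 to 50.5 against 67.1 to 69.5 CPM) is a pair of groups that does not overlap, and in ventral males of the same gene the groups do.

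Genes that act on or with protocadherins were read from lists that were drawn up with earlier results of these data known. Of 21 genes known to control promoter choice in the clusters, 1 passed as higher and 8 as lower in ventral libraries, beside 29.2% of all genes passing in either direction, with a median log2 difference of -0.13. Ctcf, whose protein binds the cluster promoters and enhancers, differed by -0.14 ± 0.03 on the log2 scale (SE, adjusted p = 0.00123), Smc3 and Stag1 of the cohesin ring differed by -0.20 ± 0.05 and -0.16 ± 0.04, and the cohesin release factors Wapl and Pds5a by -0.23 ± 0.05 and -0.22 ± 0.04 (SE). Smchd1, a silencer of clustered protocadherins, differed by -0.18 ± 0.05, the methylcytosine dioxygenase Tet3 by -0.27 ± 0.05 and the repressor Rest by -0.22 ± 0.08 (SE). Dnmt1, the maintenance DNA methyltransferase, was the 1 gene that was higher, by 0.18 ± 0.05 (SE, adjusted p = 0.00444). The ranges of Ctcf, 57.8 to 70.6 CPM in dorsal and 53.1 to 63.9 CPM in ventral libraries, overlap. None of the 21 passed for sire treatment.

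Of 22 partners and effectors, 3 passed as higher and 10 as lower in ventral libraries, beside the same 29.2% of all genes. Ptk2b, the kinase Pyk2 that α and γ protocadherin tails bind and restrain, was at 625 to 1137 CPM in dorsal and 488 to 768 CPM in ventral libraries, a log2 difference of -0.50 ± 0.10 (SE, adjusted p = 0.000607). Of the WAVE complex, which δ-2 protocadherins recruit, Wasf1, Nckap1, Abi1, Abi2, Cyfip1 and Cyfip2 passed as lower, with log2 differences from -0.28 to -0.14, while Brk1 did not pass. Cdh2, Ctnnb1 and Nlgn1 were higher, by 0.23, 0.12 and 0.17. None of the 22 passed for sire treatment.

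Of 30 other cadherin-superfamily genes, 9 passed as higher and 6 as lower in ventral libraries, again beside 29.2% of all genes. Cdh13 was at 24.3 to 50.7 CPM in dorsal and 53.3 to 80.2 CPM in ventral libraries, ranges that do not overlap. It differed by 0.78 ± 0.08 (SE over 24 libraries without an animal term). Cdh4, Dchs2 and Fat2 differed by 0.64, 0.67 and 0.92, and Cdh8, Cdh24 and Fat3 by -0.46, -0.54 and -0.37. For sire treatment 2 of these genes passed. Cdh19 was lower in dorsal nicotine-sired males (-0.79 ± 0.15, SE, adjusted p = 0.0237 with edgeR), where 1.78% of all genes passed. Celsr1 was higher in ventral nicotine-sired males (0.63 ± 0.14, SE, adjusted p = 0.0251 with edgeR), where 3.21% passed. Cdh19 also passed for the sex difference of the treatment difference, at 1.32 in dorsal and 0.79 in ventral hippocampus. There 2.24% and 1.07% of all genes passed. Each call was 1 of 29 genes of the list tested in dorsal or 1 of 30 in ventral hippocampus.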

How the data were processed

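Per the labels' protocols, poly(A) RNA of each region was sequenced from a stranded kit as single-end reads. TopHat2 2.1.0, Cufflinks, Cuffdiff and the build GRCm38 appear in the submitters' processing notes. The authors deposited whole-number counts per gene, and the counting tool, its strand setting and its handling of shared reads were not given in the sources used here. Names and exons were taken from GENCODE M21, which held 51719 of the 51912 gene IDs. Counts were tested with edgeR 4.0.16 in R 4.3.3 (TMM scaling, filterByExpr by group, robust quasi-likelihood test, Benjamini-Hochberg adjustment over all genes, threshold 0.05). Region was tested in 1 fit of 24 libraries with 8 group means and, except in the block fits, no term for the animal. Sire treatment was tested in 1 fit per region with 4 group means. DESeq2 1.42.0 was an alternative. The 2 libraries of an animal pair by label, and their deviations from the group means correlated with a median of 0.295 (8 of 12 animals over 0.1). Any member could be named. Values per library were given for members past the threshold, the most abundant of a subfamily and, in a comparison with no call, the 2 of smallest p. Pathway genes named were those past the threshold or of smallest p in their list. The scripts were tested on simulated data. The members and lists were chosen with earlier results of these data known.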

Additional observations from a re-analysis of the deposited data

How the results depend on the processing

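For region, 11 members passed; 18 passed with the animal as a replicate block, 18 on cluster-specific counts, and 8 to 16 with each animal left out in turn. On cluster-specific counts 6 α and γ members passed, 11 with the replicate block, 2 with the choroid plexus covariate and 3 to 8 with each animal left out. Of these alternative fits for region, the share of all genes that passed is given only for cluster-specific counts (29.4%). Changes in the other member counts therefore lack a background. For sire treatment in dorsal males 0 members passed, but 1 did with no low-count filter, 1 with DESeq2 and 0 to 1 with each animal left out. For the dorsal sex difference 1 passed with DESeq2 and 0 to 1 with each animal left out. Only 1 of the 4 libraries of low Zbtb20 is dorsal. Leaving them out is therefore the same dorsal fit as leaving out nicotine-sired female A, in which 1 member passed in either comparison. In ventral hippocampus of both sexes 2 (Pcdh11x and Pcdh10) passed with the animal letter as a replicate block, 1 with the choroid plexus covariate and 0 to 1 with each animal left out, and for the ventral sex difference 0 to 1. Animal letters share only a name across groups: their deviations correlated with a median of -0.127 in dorsal libraries, where 5 of 18 pairs were over 0.1. The block changed no other count by over 1.5 times. Per kilobase of unshared exon the median level was 5.04 CPM for C-type, 0.553 for alternate α, 2.38 for γA and 1.54 for γB rows. No result changed sign where it was called. The fits without the 4 libraries, with cluster-specific counts and with covariates on those counts were chosen after seeing the data. Low-count members such as Pcdh12 are limited by depth. The causes of these changes were not tested.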
